A study of Homo sapiens with 23 samples.

Results

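Peaks of 5 ChIP-seq lists were examined at the gene for the histone demethylase LSD1, KDM1A, and at 8 genes for proteins that work with it, RCOR1, RCOR2, RCOR3, HDAC1, HDAC2, PHF21A, REST and ZMYM2. A peak was counted when it overlapped a fixed window of the hg19 build around the gene, and the 9 windows were 110 to 300 kb long and 1.66 Mb in all. They held 59 of the 52708 peaks of the lists. The windows reach beyond the genes, so a peak in one of them is not thereby assigned to the gene that names it.

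LSD1 removes methyl groups from histone H3 and acts mostly inside a corepressor complex. In that complex a CoREST protein (encoded by RCOR1, RCOR2 or RCOR3) tethers the enzyme to nucleosomes, the deacetylases HDAC1 and HDAC2 remove acetyl groups, and PHF21A (BHC80) reads unmethylated lysine 4 of histone H3. DNA-binding factors bring the complex to its sites, of which REST, the repressor of neuronal genes in non-neuronal cells, is the best known. Neurons also make LSD1+8a, a splice form of LSD1 with a short extra exon.

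The cells were SH-SY5Y, an established line from a human neuroblastoma that can be driven towards a neuron-like state. Per the labels' protocols, the treatment was retinoic acid (10 µM, 4 days) followed by brain-derived neurotrophic factor (BDNF, 50 ng/mL, 3 days, no serum), and the series counts its day 0 and day 3 by BDNF. At day 3, control cells were profiled for supervillin (SVIL, an actin-binding protein named as a cofactor of LSD1+8a), for LSD1+8a and for LSD1. At day 0, LSD1 was profiled in cells with a knockdown of LSD1+8a and in control cells. Control cells carried a control shRNA and knockdown cells an shRNA against LSD1+8a, and all cells were thus infected. The LSD1+8a antibody was a polyclonal made by the submitters, and the other antibodies were commercial. Each list is 1 library with no replicate, so no difference below was tested. How far the knockdown went and how many reads each library had is not stated in the sources used here. Intervals in parentheses are exact 95% intervals that cover counting error only.

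By list, the windows held 5 of 1452 SVIL peaks, 2 of 3378 LSD1+8a peaks, 17 of 20748 LSD1 peaks of control cells at day 3, 12 of 10248 LSD1 peaks of knockdown cells at day 0 and 23 of 16882 LSD1 peaks of control cells at day 0. LSD1 was listed in all 9 windows in knockdown cells and in control cells at day 0, and in 7 of 9 in control cells at day 3, where the RCOR2 and HDAC2 windows had none. LSD1+8a was listed in the KDM1A and REST windows, and SVIL in the KDM1A window. As background, the genome was cut into 19020 tiles of 160 kb, the median window length. SVIL had a peak in 6.52% of the tiles and LSD1+8a in 14.6%. LSD1 had one in 50.8% in control cells at day 3, in 33.1% in knockdown cells at day 0 and in 45.4% in control cells at day 0. The tiles include stretches without genes whereas each window was placed on a gene, so these shares are a loose yardstick.

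**Figure D1:**
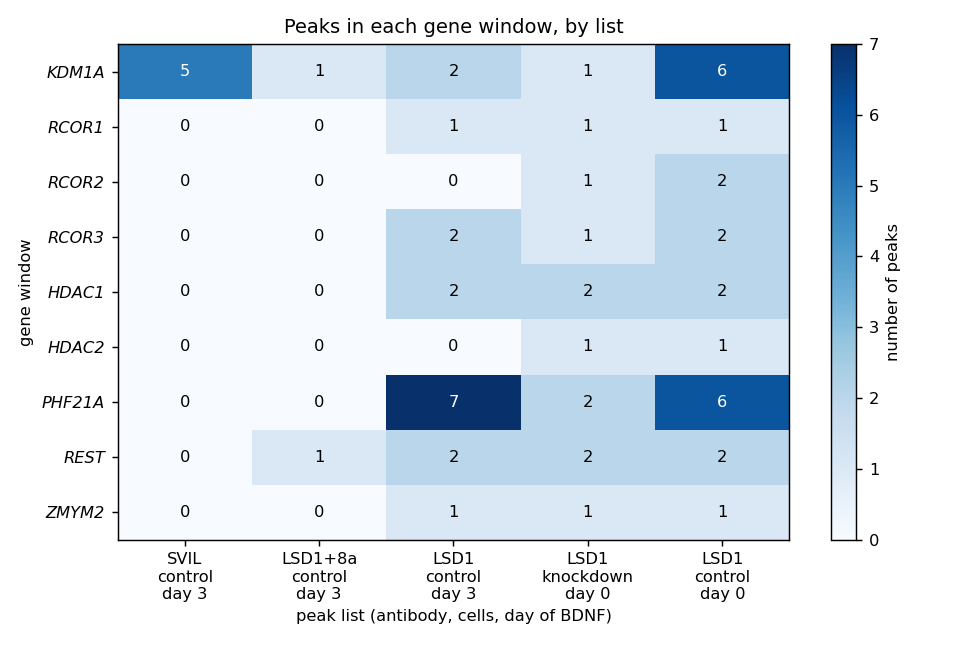
Number of peaks in each gene window (rows) in each peak list (columns), with darker cells for more peaks. KDM1A is the only row with a peak in every list, and PHF21A has the highest single count, 7 LSD1 peaks in control cells at day 3.

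Joined wherever they overlapped by at least 1 bp, the 59 peaks formed 35 regions. More than 1 list was present in 16 of them, with 11 regions held by 2 lists, 3 by 3 and 2 by 4, and the remaining 19 regions came from a single list. Over the whole series 42.4% of regions were in more than 1 list. Every one of the 9 windows had a region in at least 2 lists, as had 40.6% of the tiles, and 5 had one in at least 3, as had 20.2% of the tiles. The 5 were KDM1A, RCOR3, HDAC1, PHF21A and REST, with 1 such region each. Counted by region, these 5 of 35 regions compare with 15.7% of all 32188 regions of the series. All 5 held all 3 LSD1 lists, and those at KDM1A and REST also held LSD1+8a.

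KDM1A, the gene of the demethylase itself, had 15 peaks in 9 regions (chromosome 1, 23.29 to 23.46 Mb) and the only window with all 5 lists. Its promoter, the 250 bases before the start of the gene in RefSeq (GRCh38.p14, chr1:23019218-23019467, plus strand), is shown because no other window had a peak of every list. Capitals mark the match to the GC box GGGCGG, searched on both strands.

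KDM1A promoter: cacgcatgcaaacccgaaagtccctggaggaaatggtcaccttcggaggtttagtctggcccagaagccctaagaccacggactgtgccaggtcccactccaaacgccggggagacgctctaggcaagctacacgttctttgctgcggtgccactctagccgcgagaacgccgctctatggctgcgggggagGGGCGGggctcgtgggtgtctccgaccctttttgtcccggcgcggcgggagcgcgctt

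It holds 1 GC box and 23 CpG pairs, and 64.0% of its bases are G or C. A GC box was present in the same bases of 42.6% of the 35116 promoters of the table, whose median was 11 CpG pairs and 58% G and C. The sequence is on another build than the peaks, so which bases of it lie under a peak was not determined.

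The region in 4 lists at KDM1A spanned 23345302 to 23346862. The LSD1+8a peak there (23345568 to 23346392) had 34 tags, a fold enrichment of 12.1 and rank 2187 of 3378 by score. The LSD1 peak had 48 tags, a fold of 27.5 and rank 5979 of 20748 in control cells at day 3 (23345326 to 23346292). On day 0 it had 46 tags, a fold of 29.3 and rank 519 of 10248 in knockdown cells (23345302 to 23346292), and 75 tags, a fold of 12.3 and rank 476 of 16882 in control cells (23345434 to 23346862). The LSD1 peak was thus among the upper 5.06% of the knockdown list and the upper 2.82% of the control list at day 0. In control cells at day 3 it was among the upper 28.8% of the LSD1 list, and the LSD1+8a peak lay below the middle of its own list. Tags are not scaled for depth and folds come from separate peak calls, so neither was compared between lists as a measure of binding. The summits of the 4 peaks lay within 21 bp of each other. Over all 844 regions with these same 4 lists the median spread of summits was 149.5 bp, and 1.18% had a spread of 21 bp or less. The region of these lists in the REST window had a spread of 108 bp, and such a share was computed for KDM1A alone.

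SVIL was absent from that region and had a run of 5 peaks further along the window, starting 52.9 kb beyond it. The run covered 10.1 kb (23399793 to 23409857). The 5 SVIL peaks were 155 to 277 bp long, had 12 to 23 tags and had folds of 21.1 to 36.1, each above the list's median fold of 18.2. The highest scoring of them lay at 23408621 to 23408882, with 23 tags, a fold of 36.1 and rank 198 of 1452. Of the tiles, 0.0368% (7 of 19020) held 5 or more SVIL peaks, and the KDM1A window held all 5 SVIL peaks found at the 9 genes. Short peaks of this kind can also come from cDNA or plasmid copies of a gene, which would place them over its exons. The exons were not placed on hg19 here, so whether these peaks and the short LSD1 peaks among them reflect binding was not tested.

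Several LSD1 peaks stood among them. LSD1 in control cells at day 3 had 1 peak beyond the region in 4 lists (23408403 to 23409202, 28 tags, fold 16.8). It was among the weakest of its list, at rank 19164 of 20748, and its summit was 8 bp from that of the best SVIL peak. LSD1+8a had no peak there, and LSD1 in knockdown cells at day 0 had none. Control cells at day 0 had 5, of which 2 overlapped a SVIL peak with summits 5 and 63 bp apart. These 5 were 297 to 549 bp long against a list median of 834.5 bp, with 10 to 23 tags and folds of 7.99 to 24.7. The best of them (23405394 to 23405767) had 23 tags and rank 1794, and the weakest (23399633 to 23400010) had 10 tags and rank 16810 of 16882. Of the 5, 4 were no longer than 414 bp, a length that 2.19% of that list's peaks did not exceed. The gene LUZP1 overlaps KDM1A in RefSeq, and peaks in the stretch they share cannot be assigned to one of them.

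**Figure D2:**
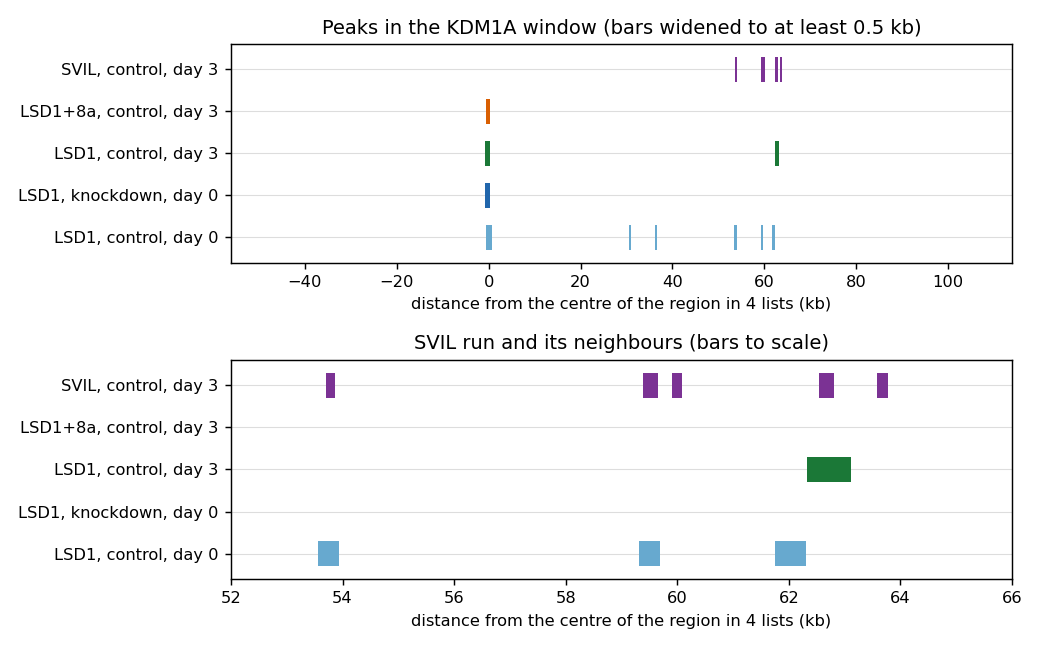
Peaks of the 5 lists in the KDM1A window, by distance in kb from the centre of the region found in 4 lists. The upper panel shows the whole window and the lower panel the run of 5 SVIL peaks, with 3 LSD1 peaks of control cells at day 0 and 1 of control cells at day 3 among them and none of knockdown cells.

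**Figure D3:**
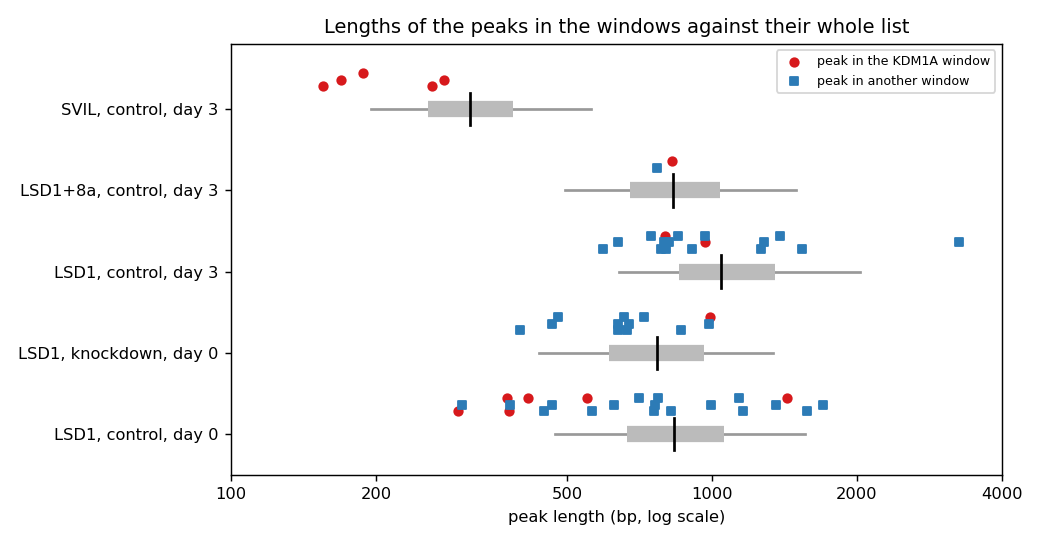
Length in bp, on a log axis, of each peak in the windows (red circles for KDM1A, blue squares for the other genes), above the whole list it comes from (thick bar from the 25th to the 75th percentile, thin line from the 5th to the 95th percentile, black tick for the median). All 5 SVIL peaks and 5 of the 6 LSD1 peaks of control cells at day 0 at KDM1A lie below their list's median.

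The windows of the 3 CoREST genes held from 0 to 2 peaks of each list, and no difference between them was tested. RCOR3 had a region in all 3 LSD1 lists (chromosome 1, 211431347 to 211433126), whose summits lay within 146 bp. There LSD1 had 67 tags and a fold of 13.1 in control cells at day 3, 43 tags and 9.66 in knockdown cells at day 0, and 52 tags and 16.6 in control cells at day 0. The peak ranked 1020 of 16882 in the day 0 control list but near the middle of the day 3 list (10702 of 20748). A second pair at RCOR3 did not overlap, with a day 3 peak (211500591 to 211501872, 54 tags) and a day 0 peak of control cells (211499343 to 211500102, 28 tags) lying 488 bases apart.

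RCOR1, which encodes CoREST itself, had no region common to both days. In control cells at day 3 its peak lay at chromosome 14, 103037114 to 103038082 (50 tags, fold 38.4, rank 3798). On day 0 it lay elsewhere in the window, with 22 tags and a fold of 11.04 in knockdown cells (103058213 to 103058935) and 10 tags and a fold of 10.4 in control cells (103058356 to 103058803). The control peak of day 0 was one of the weakest of its list, at rank 15232 of 16882. RCOR2 likewise had a region in both day 0 lists alone (chromosome 11, 63705821 to 63706792), with 23 tags, a fold of 7.73 and rank 5545 of 10248 in knockdown cells and 23 tags, a fold of 10.4 and rank 9047 of 16882 in control cells. The summits were 13 bp apart. A weaker day 0 peak of control cells (63684525 to 63684988, 14 tags) stood alone. In RefSeq the nearest protein-coding genes to RCOR2 are MARK2 and NAA40, and the gene closest to each peak was not determined.

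Both deacetylase genes had an LSD1 region on day 0, and HDAC1 had it on day 3 as well. The HDAC1 region (chromosome 1, 32757058 to 32758129) had 41 tags and a fold of 31.01 in control cells at day 3 and 33 tags and a fold of 11.9 in control cells at day 0. In knockdown cells at day 0 it was called as 2 adjoining peaks, with 18 and 19 tags and folds of 15.96 and 13.05. HDAC1 also had a peak in control cells at day 3 alone (32777315 to 32778117, 79 tags, fold 44.7, rank 1803). Its fold was the highest of the 17 LSD1 peaks of that list in the windows. A peak of control cells at day 0 alone (32705753 to 32706911, 32 tags, fold 15.98, rank 1850) was the best in the HDAC1 window on that day. It lay 5753 bases inside the window's lower edge. In RefSeq the nearest protein-coding gene to HDAC1 on that side is LCK, and the peak may lie closer to another gene than to HDAC1. HDAC2 had 1 region (chromosome 6, 114291946 to 114292887), with 37 tags and a fold of 5.67 in knockdown cells and 30 tags and a fold of 8.80 in control cells at day 0, and nothing listed on day 3.

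PHF21A, the gene of the histone reader, had 15 peaks in 10 regions over the longest window (chromosome 11, 45.90 to 46.20 Mb). LSD1 had 7 peaks there in control cells at day 3, 2 in knockdown cells at day 0 and 6 in control cells at day 0. Its region in all 3 LSD1 lists (46134318 to 46134982) had 65 tags and a fold of 28.9 in control cells at day 3, 29 tags and 16.2 in knockdown cells, and 33 tags and 27.04 in control cells at day 0, with summits within 40 bp. In control cells at day 3 the best peak was the longest of the 59 (45900663 to 45903922, 3260 bp, 191 tags, fold 15.5, rank 1554), and its summit was 4 bp from that of a day 0 control peak with 55 tags and a fold of 10.7. That peak lay 663 bp inside the window's edge. The best knockdown peak (45920972 to 45921643, 52 tags, fold 24.2, rank 536 of 10248) overlapped a day 0 control peak with 41 tags, a fold of 20.5 and rank 1375, and no day 3 peak. Between these, 4 day 3 peaks with 23 to 62 tags (46015739 to 46127440) had no overlap on day 0. Their ranks ran from 7262 to 20603 of 20748, so the weakest was near the end of its list.

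**Figure D4:**
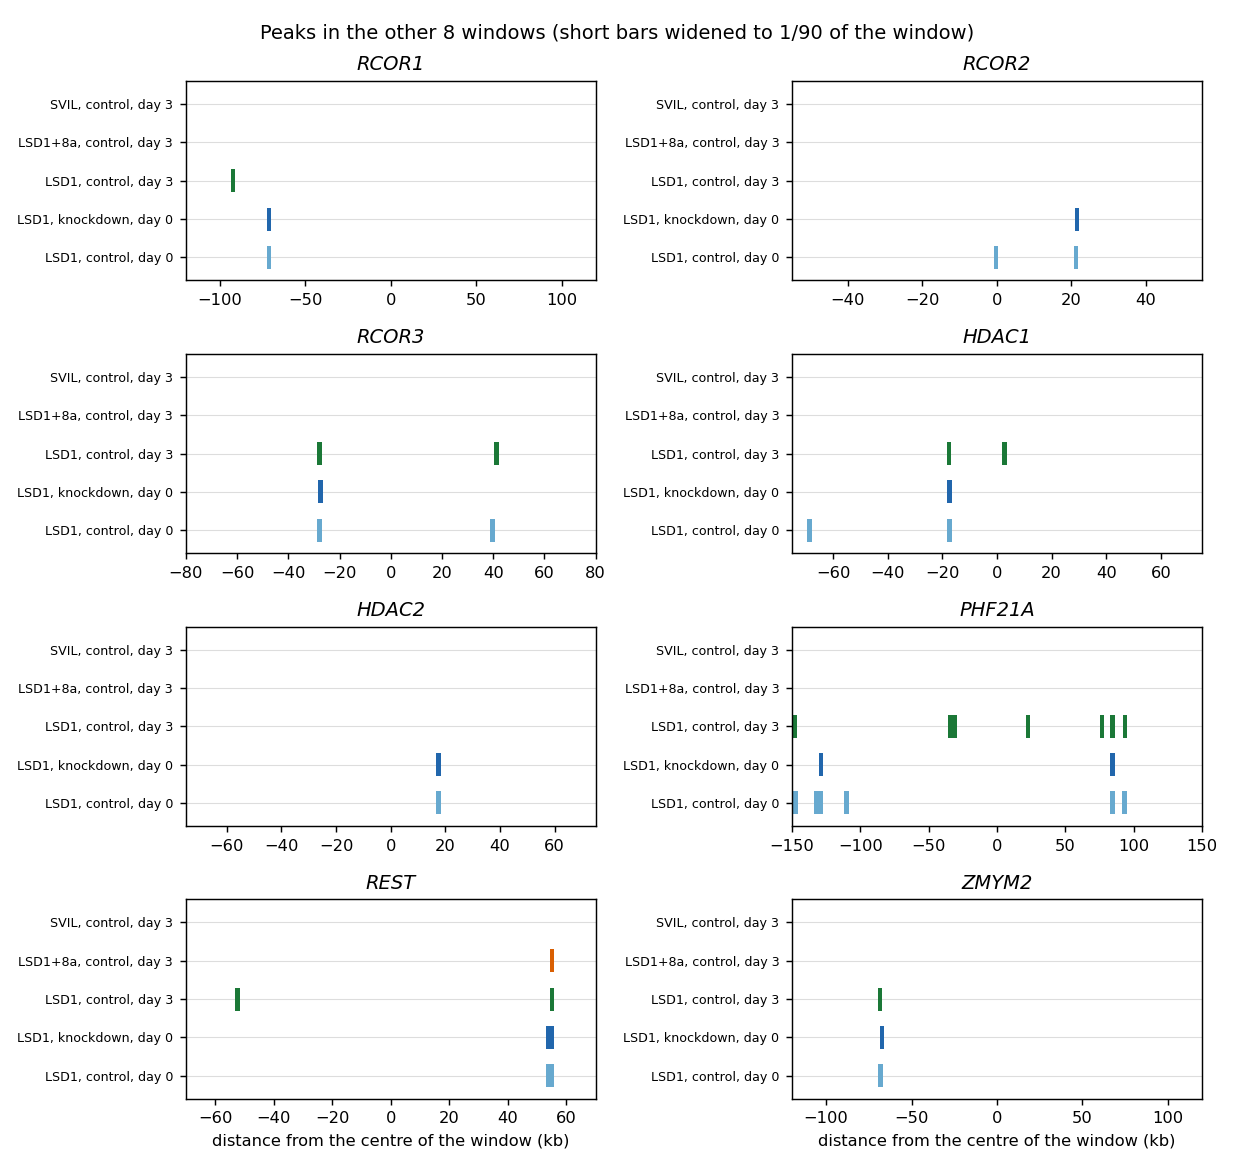
Peaks of the 5 lists in the other 8 windows, by distance in kb from the centre of each window. LSD1 peaks of knockdown and control cells at day 0 overlap in 7 of the 8 windows, a count without a computed background. No SVIL peak appears, and the single LSD1+8a peak is near the high end of the REST window.

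For REST, among the factors that bring the complex to chromatin, the window held 7 peaks in 3 regions (chromosome 4, 57.72 to 57.86 Mb). Its region in 4 lists lay near the far end of the window (57844716 to 57845517). The LSD1+8a peak there had 34 tags, a fold of 21.7 and rank 947 of 3378. LSD1 had 32 tags and a fold of 20.35 in control cells at day 3, 25 tags and 5.62 in knockdown cells at day 0, and 20 tags and 7.99 in control cells at day 0. LSD1 lay in the lower part of all 3 of its lists, at rank 12327 of 20748 in control cells at day 3, 8949 of 10248 in knockdown cells and 15477 of 16882 in control cells at day 0. The summits of the 4 peaks lay within 108 bp. A neighbouring region (57843365 to 57844087) was in both day 0 lists, with 21 tags at rank 3277 in knockdown cells and 19 tags at rank 16281 in control cells. Control cells at day 3 had their best peak of this window at its other end (57736939 to 57738202, 59 tags, fold 14.4, rank 8866). All 7 peaks lay 14483 to 16939 bases from an edge of the window. In RefSeq the nearest protein-coding genes to REST are SPINK2 and NOA1, and each of the 7 peaks may lie closer to another gene than to REST.

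ZMYM2, a zinc-finger protein found with LSD1 and CoREST, had 2 regions on chromosome 13. In control cells LSD1 was listed on both days with summits 5 bp apart (20531251 to 20532089), with 27 tags and a fold of 18.9 at day 3 and 22 tags and a fold of 11.03 at day 0. The knockdown peak (20532635 to 20533032, 12 tags, rank 9531 of 10248) lay 545 bases beyond the day 0 control peak, and it was the only knockdown peak at the 9 genes with no control overlap.

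The choice of windows also included one more, on chromosome 16 (85.59 to 85.76 Mb), whose gene is not among the 9. It held 2 LSD1 peaks of control cells at day 3 (40 and 74 tags), 1 of knockdown cells at day 0 (18 tags) and 1 of control cells at day 0 (28 tags). The day 0 peaks overlapped, and neither day 3 peak overlapped them.

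The first comparison was LSD1 in control cells at day 3 against day 0. Of the 17 day 3 peaks at the 9 genes, 8 overlapped a day 0 peak (47.1%, 22.98 to 72.2), against 40.1% of the whole day 3 list. Of the 23 day 0 peaks, 8 overlapped a day 3 peak (34.8%, 16.4 to 57.3), against 50.1% of the whole day 0 list. Both intervals hold the share of the whole list. The shared peaks lay in the windows of KDM1A, RCOR3, HDAC1, PHF21A, REST and ZMYM2. The share of tiles with such a pair was not computed. The titles of the 3 control libraries of day 3 used here carry no library number, while those of the day 0 libraries used here and of other day 3 libraries do, so the day cannot be told apart from other differences between the libraries.

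The second was LSD1 at day 0 in LSD1+8a knockdown against control cells. Of the 12 knockdown peaks, 11 overlapped a control peak (91.7%, 61.52 to 99.8), against 69.4% of the whole list. The 11 include the 2 adjoining peaks at HDAC1, which overlapped the same control peak and were not independent. By region, 11 held a knockdown peak, and 1 of these held no control peak. Of the 23 control peaks, 10 overlapped a knockdown peak (43.5%, 23.2 to 65.5), against 42.1%. Such a shared region was present in 8 of the 9 windows, that of ZMYM2 being the exception. The share of tiles with this pair of lists was not computed, so the count has no matching background. Of all tiles, 40.6% held a region in at least 2 lists of any kind. The knockdown list is shorter as a whole, and a shallower library cannot be told apart from fewer sites.

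The other 3 comparisons concerned control cells at day 3. Both LSD1+8a peaks overlapped an LSD1 peak (15.8 to 100%), against 59.6% of the LSD1+8a list, and 2 of 17 LSD1 peaks overlapped LSD1+8a (11.8%, 1.46 to 36.4), against 9.69%. None of the 5 SVIL peaks overlapped LSD1+8a (0 to 52.2%), against 18.6% of the SVIL list, and neither LSD1+8a peak overlapped SVIL (0 to 84.2%), against 7.70%. One of the 5 SVIL peaks overlapped LSD1 (20%, 0.505 to 71.6), against 58.7%, and 1 of the 17 LSD1 peaks overlapped SVIL (5.88%, 0.149 to 28.7), against 3.97%. With so few peaks each of these intervals holds the share of its whole list. The intervals treat the 5 SVIL peaks as separate although all lie in 1 run at KDM1A, so they understate the uncertainty.

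At the 9 genes the median fold was above, and the median number of tags and length below, that of the whole list in each of the 5 lists. The SVIL medians rest on 5 peaks of 1 run at KDM1A. Those of LSD1+8a rest on 2 peaks, with folds of 12.1 and 21.7. The median length in bp was 188 for SVIL against 314 and 797.5 for LSD1+8a against 831. For LSD1 it was 851 against 1044 in control cells at day 3. At day 0 it was 661.5 against 769 in knockdown and 704 against 834.5 in control cells. The median fold was 32.8 for SVIL against 18.2 over the whole list, 16.9 for LSD1+8a against 15.2, 19.5 for LSD1 in control cells at day 3 against 17.05, 12.04 in knockdown cells at day 0 against 9.13 and 11.9 in control cells at day 0 against 9.30. The median number of tags was 15 for SVIL against 20 over the whole list, 34 for LSD1+8a against 38, 48 for LSD1 in control cells at day 3 against 50, 24 in knockdown cells at day 0 against 28 and 23 in control cells at day 0 against 26.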

How the data were processed

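The data are 5 peak lists as deposited, each called by the authors on a single library. CASAVA and Bowtie 1.0.0 are named in the submitters' processing notes, with the builds hg19 and mm9. Chromosomes absent from mouse occur in the lists, which were read as hg19. Caller, threshold and input library are not stated in the sources used here. By title, the inputs other than those for the histone mark H3K9me2 include control cells at day 0 but not at day 3. The authors' tags are a raw count of reads per peak. Fold enrichment was taken as deposited, a ratio made by the caller. The deposited score has no name left in its header and served to rank peaks within a list. Length and summit are in bp, per the file headers.

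Shares have exact binomial and counts exact Poisson 95% intervals. Summit spreads use the best scoring peak of each list. Overlap and merging were tested on simulated data. The text names all 9 genes, the best scoring peak of each list per window and regions in at least 3 lists; single peaks beyond these were named after their values were seen. Genes, windows and comparisons were chosen with earlier results of these data known. Alternatives changed window edges, thresholds and overlap. Distances to gene starts and further complex genes were not analysed, because the annotation used here is on another build than hg19. Of the 14 ChIP samples, 9 were not analysed here, so antibody specificity was not checked, and the cell line was not checked by expression. Python 3.11.15, pandas 2.3.3, scipy 1.17.1 and matplotlib 3.10.9 were used.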

Additional observations from a re-analysis of the deposited data

How the results depend on the processing

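No paired analysis was possible because each group is 1 library and no test was made. Of 77 values recomputed for 11 results, 61 stayed within 1.5 times the count or inside the interval of the share. With so few peaks these intervals are wide (0 to 52.2% for SVIL with LSD1+8a), so staying inside them says little. Shortening the windows by 25 kb left 1 LSD1+8a peak. Extending them by 50 kb gave 20 LSD1 peaks in knockdown cells and 40 in control cells at day 0, and 53 regions. The upper 50% of each list by score held 3 SVIL, 1 LSD1+8a, 9 day 3 LSD1 and 11 day 0 LSD1 peaks of control cells in 21 regions, and no LSD1+8a or SVIL peak then overlapped LSD1 (0% for both). The lowest SVIL score applied to all lists left 1 LSD1+8a peak and 14 day 0 LSD1 peaks of control cells, and SVIL overlap with LSD1 was 0%, as it was with a reciprocal overlap of 50%. With edges at most 1 kb apart, 100% of knockdown peaks were shared with control cells. Counts of 1 to 5 peaks change in large steps, and unknown depth limits every absence from a list.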

Other observations

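Of 160 kb tiles other than the one at KDM1A, 6 had 5 or more SVIL peaks, on chromosome 10 (29760001 to 29920000, 7 peaks), chromosome 8 (22880001 to 23040000, 7 peaks), chromosome 6 (26080001 to 26240000, 6 peaks), chromosome 11 (72000001 to 72160000, 6 peaks), chromosome 7 (133440001 to 133600000, 5 peaks) and chromosome 18 (52800001 to 52960000, 5 peaks). Without tiles, 5 SVIL peaks within the 10.1 kb of the KDM1A run were found at 1 other place in the list, on chromosome 8 (23004961 to 23012338), with 6 peaks over 7.38 kb. The median peak length was 188 bp in the KDM1A run and 267.5 bp in the run on chromosome 8. At KDM1A, LSD1 peaks of control cells at day 0 stood among the SVIL peaks of day 3, from another antibody and day. Knockdown cells at day 0 had no LSD1 peak there, and control cells at day 3 had no LSD1+8a peak there. Whether these peaks follow exons was not determined, and a source in cDNA or plasmid copies of the gene was not tested.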
